A study of Mus musculus with 6 samples.

Results

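The nuclear receptor family was followed in outer hair cells, which amplify sound in the cochlea by changing length. Its members were the 46 genes of a fixed list of mouse nuclear receptors, chosen by family and not by measured values, among the 23337 gene symbols of the deposited tables. All 46 were listed there, and 26 passed the filter on low counts and were tested (56.5%, against 50.2% of all symbols). The cells came from the organ of Corti of mice at embryonic day E18.5 and were sorted for a green fluorescent protein and Cre allele at Insm1, which both genotypes therefore carried. RNA depleted of ribosomal RNA was sequenced in 3 Insm1-Het and 3 Insm1-KO libraries. Insm1 encodes a zinc-finger factor, and the title of the series concerns their conversion toward inner hair cells in its absence. The sort relies on activity of the Insm1 locus, there were no libraries without that allele, and the labels give neither strain nor sex nor whether a library pools animals.

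Most nuclear receptors are transcription factors that pair a DNA-binding domain of zinc fingers with a ligand-binding domain. Many are switched by small lipophilic ligands such as thyroid hormone, retinoic acid, steroids and sterols, while orphan members have no established physiological ligand. Thyroid hormone receptors and retinoic acid receptors usually bind DNA beside a retinoid X receptor, hold corepressors without ligand and recruit coactivators with it. In the cochlea, thyroid hormone acting through Thrb is needed for the onset of hearing, and retinoic acid takes part in the early patterning of the inner ear.

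Most members share a stretch of the first zinc finger, whose recognition helix contacts DNA. It is shown because its codons differ between groups of the family. The following coding stretches are printed 5′ to 3′ on the sense strand, with the second, the third and the sixth codon in capitals (the P box, the residues that distinguish half-sites). They were read from the GENCODE M21 transcripts on GRCm38.
Thrb: tgtGAAGGCtgcaagGGCttcttt
Rara: tgtGAGGGCtgtaagGGCttcttc
Rxra: tgtGAGGGCtgcaagGGCttcttc
Nr2c2: tgtGAAGGTtgcaaaGGTttcttc
Nr2f1: tgcGAGGGCtgcaaaAGTttcttc
Esrrg: tgtGAAGCCtgcaagGCAttcttc
Nr3c2: tgcGGCAGCtgcaaaGTCttcttc
Pgr: tgtGGGAGCtgcaagGTCttcttt
The Thrb and Rara stretches each span an intron. The others lie within 1 exon, at chr2:27741787-27741810 (plus strand) for Rxra, chr6:92154358-92154381 (plus) for Nr2c2, chr13:78198253-78198276 (minus) for Nr2f1, chr1:188043710-188043733 (plus) for Esrrg, chr8:77085627-77085650 (plus) for Nr3c2 and chr9:8903708-8903731 (plus) for Pgr.

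The first form, the codon pattern TGNGANGGNTGNAAN searched in frame on the sense strand of the longest coding sequence, was found in 34 of the 46 members and in 0.204% of 22075 coding genes. The estrogen-related receptors Esrra, Esrrb and Esrrg carried the second form, TGNGANGCNTGNAAN (0.159% of coding genes). The corticoid and progesterone receptors Nr3c1, Nr3c2 and Pgr carried the third form, TGNGGNAGNTGNAAN (0.05% of coding genes). Nr2e1, Nr2e3, Nr5a1, Nr5a2, Nr0b1 and Nr0b2 held none of these letters in frame. The patterns end before the sixth codon, so the first form pools differing P boxes, as in Thrb and Nr2f1. The forms are therefore no sort by half-site. Levels are given as CPM, a gene's counts scaled to a common total, the library's sum over tested genes times its TMM scaling factor. By that measure, members with the first form made up 93.8% to 98.8% of the family's summed CPM in the 6 libraries. Members with the second form made up 1.02% to 4.43% and those with the third form 0.195% to 1.48%. Most of the receptor RNA was thus of the first form, which 34 of the 46 members carry. These include the thyroid hormone, retinoid, testicular and COUP receptors.

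The libraries held 9259736, 7705177 and 9748629 counts in Insm1-KO replicates 1, 2 and 3 and 10721902 to 12427039 in the Insm1-Het libraries, of which the 46 members took 0.148% to 0.205%. A count of 0 allows a level of up to 3 counts, which is 0.237 to 0.391 CPM by library and covers counting error only. Insm1 was at 109, 116 and 69.2 CPM in Insm1-Het and at 78.7, 60.3 and 18.7 CPM in Insm1-KO, with overlap, and since the removed stretch of Insm1 is not named in the labels, these counts do not check the genotype. All 10 hair cell markers were counted in every library, with summed levels of 9632 to 10000 CPM in Insm1-Het and 9578 to 11140 CPM in Insm1-KO. Of 6 outer hair cell markers listed in the files, 5 were counted in all libraries, and their sum was 528 to 653 CPM in Insm1-Het and 472 to 481 CPM in Insm1-KO. Insm1 is on that list, and without it the sums overlapped, at 543, 421 and 459 CPM in Insm1-Het and 399, 420.5 and 454 CPM in Insm1-KO. Fam40b was at 332, 244 and 270 CPM in Insm1-Het and lower in Insm1-KO, at 213, 191 and 201 CPM. Ocm was at 0 in Insm1-Het and at 1.60, 2.87 and 3.67 CPM in Insm1-KO. Such an order held for 6.1% of tested genes downward and 5.08% upward. Slc26a5, Ikzf2 and Bcl11b overlapped. The sum of 4 inner hair cell markers was 0.0937 to 7.75 CPM in Insm1-Het and 92.0 to 431 CPM in Insm1-KO, and most of the latter was 1 gene, Brip1, at 76.8, 88.04 and 422 CPM. Slc17a8, which loads glutamate into inner hair cell vesicles, was at 0.489, 0 and 1.19 CPM in Insm1-Het and at 1.92, 0 and 0 CPM in Insm1-KO. Tbx2 was at 0.163, 0.0937 and 0.632 CPM in Insm1-Het and at 4.06, 19.2 and 5.01 CPM in Insm1-KO. Fgf8 was at 0 CPM in all Insm1-Het libraries and at 9.29, 0 and 4.67 CPM in Insm1-KO. Supporting cell markers (8 of 8 counted in all libraries) summed to 2059 to 2677 CPM in Insm1-Het and 2309 to 3319 CPM in Insm1-KO, while erythroid markers, 3 of 4 of them at 0 throughout, stayed at 4.96 CPM or less. Neuron markers summed to 847 to 1517 CPM over the 6 libraries, glia markers to 136 to 267 CPM and immune markers to 37.6 to 168 CPM. Most of the neuron sum was Nefl and Nefm, while Tubb3 reached at most 3.39 CPM. Laptm5 gave most of the immune sum in each library, with Csf1r at 0 throughout. Insm1-KO replicate 3 stood apart, with a mean Spearman correlation of 0.818 with the other libraries across tested genes against 0.859 to 0.881 for the rest. Results that rest on it are given with and without it.

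The family divided into a small group of abundant receptors and a long tail. Of the 46 members, 21 had a mean of at least 5 CPM over the 6 libraries (45.7%, against 44.4% of all symbols). In every library 23 were counted (50.0%, against 45.3% of all symbols), 12 were counted in 1 to 5 libraries, and 11 had 0 counts throughout (23.9%, against 32.9% of all symbols). Each library detected 28 to 30 members. The share at 5 CPM or more lay near that of all genes. The 11 at 0 were the liver X receptor Nr1h3, the bile acid receptor Nr1h4, the vitamin D receptor Vdr, the xenobiotic receptor Nr1i2, Hnf4a, Hnf4g, the estrogen receptor Esr1, the photoreceptor factor Nr2e3, Nr5a1, Nr0b1 and Nr0b2.

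Per kilobase of annotated exon, which is needed to set genes beside each other, the order of mean levels was Thrb at 76.3 CPM, Rara at 41.3, Rxra at 33.7, Nr2f1 at 25.0, Nr2c2 at 12.41 and Nr2f2 at 10.2. Thrb lay at percentile 97.3 of all genes counted, and its lowest library (57.4 CPM per kilobase) was above the highest of Rara (53.7). The ranges of the other neighbours in this order overlapped. Within libraries, Rara was above Rxra in 5 of 6, Rxra above Nr2f1 in 5 of 6, Nr2f1 above Nr2c2 in 6 of 6 and Nr2c2 above Nr2f2 in 5 of 6. The order depends on the length used. With the longest transcript in place of all exon bases, Thrb and Rara stayed first and second, Nr2f1 (39.8 CPM per kilobase) moved ahead of Rxra (37.5), Nr2c2 was at 24.2 and Nr2f2 at 20.9, Ppard moved from rank 11 to 7 and Esrrg from 7 to 11. Esrrg, Nr1h2, Nr2c1, Thra and Ppard followed with means of 7.07 to 6.39 CPM per kilobase and overlapping libraries. Thrb alone gave 28.6% to 38.9% of the family's summed CPM.

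**Figure D1:**
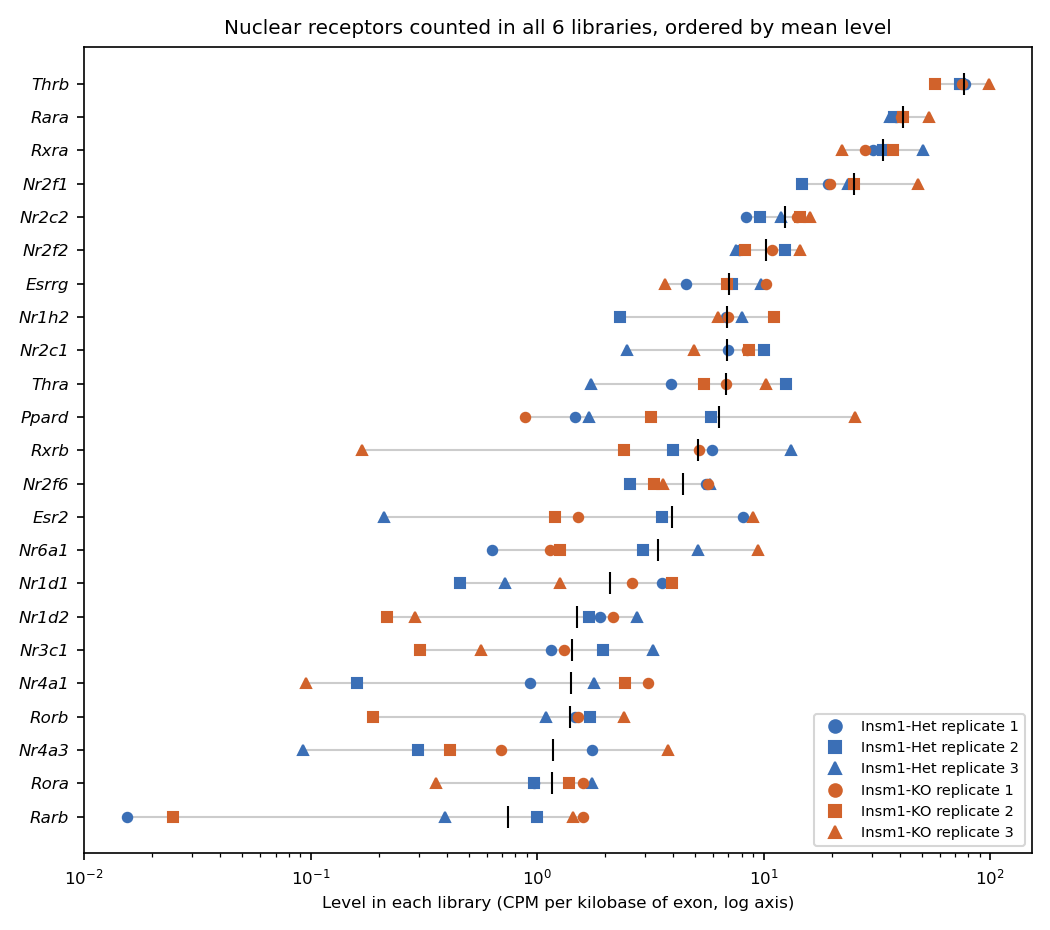
Level of each nuclear receptor counted in all 6 libraries, in CPM per kilobase of exon on a log axis, with 1 symbol per library (blue Insm1-Het, orange Insm1-KO, shape by replicate) and a black tick at the mean. Thrb lies to the right of every other receptor in each library, and the spread between libraries widens toward the less abundant receptors, reaching from 0.0155 to 1.60 CPM per kilobase for Rarb.

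The thyroid hormone receptors were led by Thrb, the receptor whose loss impairs hearing (GRCm38 chr14:17660261-18038090, plus strand). In CPM for replicates 1, 2 and 3, the order kept from here on, Thrb was at 577, 543 and 557 in Insm1-Het and at 558, 425 and 732 in Insm1-KO. The Insm1-KO libraries lay on both sides of the Insm1-Het libraries, which were close together. The fitted log2 fold change was 0.03 (SE 0.22, n = 3 per genotype, 95% interval -0.45 to 0.51, edgeR adjusted p = 0.996). Its sign turned without Insm1-KO replicate 3 (-0.18), with scaling by library size alone (-0.04) and with a replicate block (-0.0022). Thra, the more widely expressed receptor of the pair, was at 18.1, 58.2 and 7.98 CPM in Insm1-Het and at 31.6, 25.2 and 47.1 CPM in Insm1-KO, with full overlap. The level of Thrb per kilobase was 5.82 to 43.5 times that of Thra, higher in 6 of 6 libraries. Thra shares 263 bp of exon with Nr1d1 on the opposite strand, and without a stated strand setting reads of the shared bases cannot be told apart.

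Genes that bring thyroid hormone to its receptors were counted unevenly. Of the 9 genes for transport, deiodination and binding, 4 were tested, and 0 of these passed an adjusted p of 0.05 by edgeR, nor an unadjusted 0.05. Slc7a5, an amino acid transporter that also carries the hormone, was at 73.3 to 94.95 CPM in Insm1-Het and 90.7 to 172 CPM in Insm1-KO. Crym, a cytosolic binding protein for the hormone, was at 29.2 to 53.3 CPM and 22.7 to 58.3 CPM. Dio1 and Dio3, which encode deiodinases, were at 0 in all 6 libraries, and Dio2, whose product makes active hormone, had 3 counts in Insm1-Het replicate 1 and 0 elsewhere. Among 6 genes taken as thyroid hormone targets, all tested, 2 lay above 0 and 4 below, against 50.9% above 0 over all tested genes. The median log2 fold change was -0.18, and 0 of the 6 passed an unadjusted 0.05 by edgeR. Klf9, a transcription factor gene of that list, had a mean of 18.4 CPM over the 6 libraries. The genotypes overlapped for both receptors and for all 6 targets.

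Retinoic acid receptor RNA was almost all Rara (chr11:98927818-98974942, plus strand). Rara was at 168, 164 and 158 CPM in Insm1-Het and at 177, 181 and 234 CPM in Insm1-KO. Each Insm1-KO library was above each Insm1-Het library, by a narrow margin for replicates 1 and 2. The log2 fold change was 0.28 (SE 0.26, n = 3 per genotype, edgeR adjusted p = 0.979), and 0.14 without Insm1-KO replicate 3. Rarb, a receptor that is itself induced by retinoic acid, was at 0.0814, 5.25 and 2.06 CPM in Insm1-Het and 8.44, 0.13 and 7.57 CPM in Insm1-KO. Rarg had 70 counts in Insm1-Het replicate 1 and 0 in the other 5 libraries. The level of Rara per kilobase was 25.2 to 2484 times that of Rarb, and 34.1% of the annotated Rarb exon bases overlap Top2b, an abundant gene on the opposite strand at 423 to 590 CPM, so part of the Rarb counts may not be its own.

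The 30 bases around a retinoid element before the Rarb start are shown (minus strand of chr14:16575506-16575535 in RefSeq on GRCm38.p6). Capitals mark the 16 bases of the searched motif. They cover the direct repeat and its 5-base spacer, except the first base of the first half-site.
Rarb: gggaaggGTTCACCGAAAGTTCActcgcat
The capitals lie 52 to 37 bases before the RefSeq start. Searched on both strands of the 250 bases before the start, the motif of GTTCA, any 5 bases and AGTTCA was found in 9 of 32851 promoters (0.0274%). Of the 42 members with a promoter in the table, 1 had it, Rarb. The motif has the letters of the Rarb repeat itself, so its match there is no test. Retinoid elements with other letters were not covered by it. The half-site AGGTCA, which is part of many nuclear receptor elements, was found in 11 of 63 member promoters against 14.0% of all promoters. The repeat AGGTCA, any 4 bases and AGGTCA was found in 0 member promoters and in 0.0152% of all. A match describes letters and not binding.

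The retinoid X receptors, the shared partners of many other receptors, were led by Rxra (chr2:27676440-27762957, plus strand). Rxra was at 166, 184 and 275 CPM in Insm1-Het and at 153, 204 and 121 CPM in Insm1-KO, with overlap and a log2 fold change of -0.39 (SE 0.30, n = 3 per genotype, edgeR adjusted p = 0.971). That value was -0.22 without Insm1-KO replicate 3, -0.13 without Insm1-Het replicate 3 and -0.59 without Insm1-KO replicate 2. Rxrb was at 23.5, 15.8 and 52.7 CPM in Insm1-Het and at 20.6, 9.65 and 0.668 CPM in Insm1-KO. Insm1-KO replicate 3 was its lowest library and Insm1-Het replicate 3 its highest, and Rxra kept the same extremes. Rxrg, which spans chr1:167598384-167639623 (plus strand), did not pass the filter. It had 0, 1 and 0 counts in Insm1-Het and 26, 30 and 1 counts in Insm1-KO, a ratio of 78.0 after scaling (exact binomial 95% interval 13.5 to 3135, for counting error only). The exact two-sided permutation test over libraries gave p = 0.1, the smallest that 3 against 3 allows, and Insm1-KO replicate 3 had no more counts than Insm1-Het replicate 2. The genotypes do not overlap in CPM only because those single counts fall in libraries of different depth. Over all tested genes, a set without Rxrg, 5.08% had every Insm1-KO library above every Insm1-Het library. Among the 20 members not tested it was 2, and the share over all untested symbols was not computed.

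Genes for retinoid handling showed one abundant member. Cyp26b1, whose enzyme breaks down retinoic acid, was at 158, 119 and 202 CPM in Insm1-Het and at 161, 228 and 214 CPM in Insm1-KO, with overlap and a log2 fold change of 0.33 (SE 0.29, n = 3 per genotype, edgeR adjusted p = 0.979). The enzymes that make retinoic acid were scarce. Aldh1a2 was at 0 in all libraries, Aldh1a3 had at most 8 counts, and Aldh1a1 had 109 counts in Insm1-KO replicate 1 and at most 7 elsewhere. Stra6, a receptor for retinol uptake, was at 20.7 to 50.1 CPM in Insm1-Het and 19.3 to 73.2 CPM in Insm1-KO. Of the 15 genes listed, 8 were tested, and 0 passed an unadjusted 0.05 by edgeR. Among them Fabp5 was at 13.4 to 19.8 CPM in Insm1-Het and 27.8 to 48.7 CPM in Insm1-KO. Its libraries did not overlap, which held for 5.08% of tested genes in that direction. Of 6 retinoic acid targets only Ncoa7 was tested, and it was at 27.9 to 39.2 CPM in Insm1-Het and 15.7 to 23.4 CPM in Insm1-KO (log2 fold change -0.87, SE 0.59, n = 3 per genotype, edgeR adjusted p = 0.949). Its libraries did not overlap, which held for 6.1% of tested genes in that direction. Rarres1, the next by level, had a mean of 1.17 CPM.

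**Figure D2:**
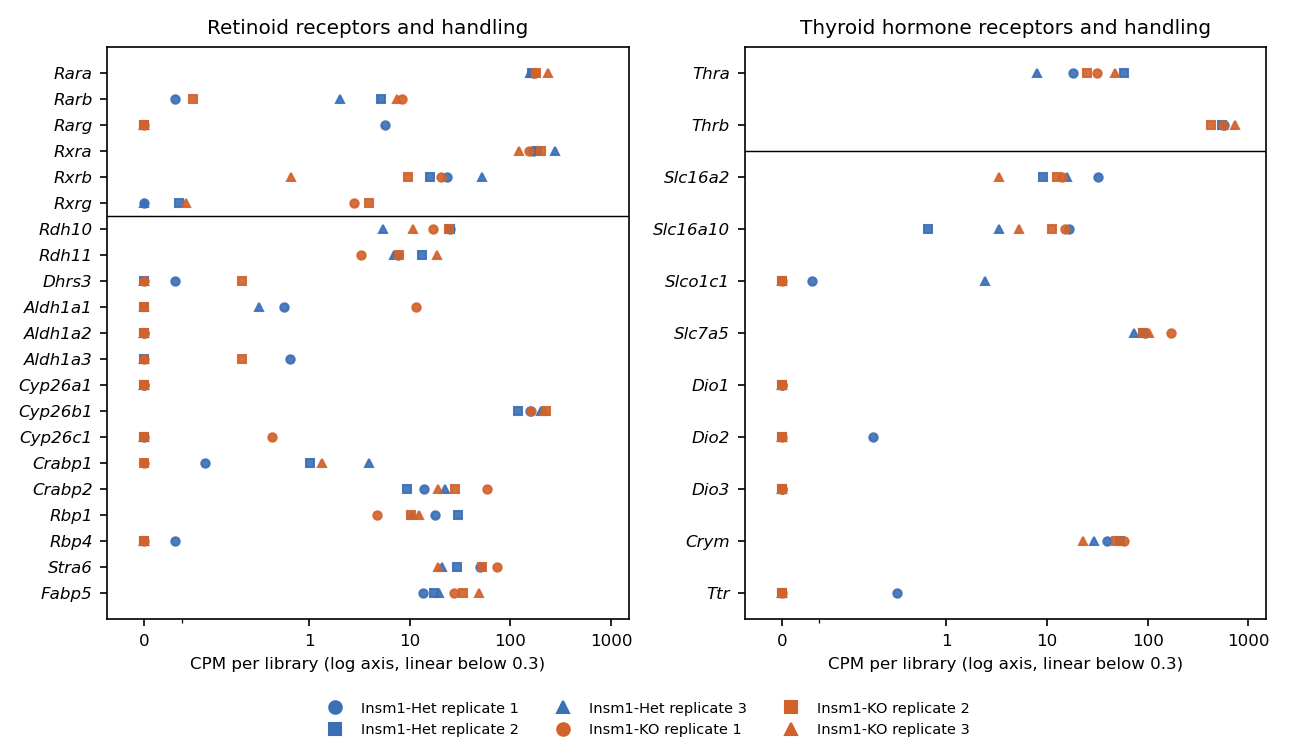
CPM in each library, on a log axis that is linear below 0.3, of the retinoid receptors above the line and retinoid handling genes below it (left panel), and of the thyroid hormone receptors and their hormone's handling genes (right panel), with 1 symbol per library. Cyp26b1 lies at 119 to 228 CPM in the 6 libraries, while Aldh1a2, Dio1 and Dio3 sit at 0 in all libraries.

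The orphan testicular receptors held the one member with an unadjusted p under 0.05. Nr2c2, which encodes testicular receptor 4 (chr6:92091390-92174294, plus strand), was at 124, 144 and 179 CPM in Insm1-Het and at 209.7, 217 and 239 CPM in Insm1-KO. All Insm1-KO libraries were above all Insm1-Het libraries, at means of 222 ± 15.1 and 149 ± 27.4 CPM (SD, n = 3). The fitted log2 fold change was 0.58 (SE 0.27, 95% interval 0.0027 to 1.15, edgeR adjusted p = 0.93). The difference did not pass the adjusted threshold, and an unadjusted p under 0.05 was reached by 5.34% of all tested genes, against 1 of 26 members. Without Insm1-KO replicate 3 the log2 fold change was 0.53, and over all alternatives it ranged from 0.46 to 0.74 with adjusted p of 0.616 to 1. It reached an unadjusted 0.05 in 3 of 15 alternatives and in 1 of the 6 that leave out a library. Its annotated exons overlap those of Mrps25 on the opposite strand over 4590 bp, 30.7% of their length. Mrps25 was at 22.8 to 38.6 CPM in Insm1-Het and 27.8 to 51.3 CPM in Insm1-KO, with overlap, and its part in the Nr2c2 counts was not tested.

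The paralog Nr2c1, testicular receptor 2, did not follow that order. It was at 32.1, 46.1 and 11.5 CPM in Insm1-Het and at 39.1, 39.7 and 22.7 CPM in Insm1-KO, with overlap. Nr2c2 was higher per kilobase in 5 of 6 libraries, at 0.961 to 4.77 times the level of Nr2c1. Nr2e1, an orphan receptor of neural progenitors, had 36 counts in Insm1-Het replicate 3, 2 in Insm1-KO replicate 3 and 0 in the others.

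The COUP transcription factors were all counted in every library. Nr2f1, known for its part in cochlear development (chr13:78188973-78199757, minus strand), was at 97.9, 75.6 and 121 CPM in Insm1-Het and at 99.6, 128 and 244 CPM in Insm1-KO. Insm1-KO replicate 3 was far above the rest, and Insm1-KO replicate 1 lay within the Insm1-Het range. The log2 fold change was 0.68 (SE 0.37, n = 3 per genotype, edgeR adjusted p = 0.938) and dropped to 0.22 without Insm1-KO replicate 3. Nr2f2, known for venous and mesenchymal development, was at 67.4, 107 and 65.2 CPM in Insm1-Het and at 94.2, 71.4 and 125 CPM in Insm1-KO. Nr2f6 was at 16.7, 7.68 and 17.4 CPM in Insm1-Het and at 17.0, 9.78 and 10.7 CPM in Insm1-KO. Both overlapped between genotypes. Per kilobase, Nr2f1 was above Nr2f2 in 6 of 6 libraries (1.199 to 3.31 times), and Nr2f2 above Nr2f6 in 6 of 6 (1.30 to 4.81 times) by all exon bases. By the longest transcript, Nr2f1 was above Nr2f2 in 5 of 6 libraries and below it in Insm1-Het replicate 2 (0.932 times). Of the Nr2f6 exon bases, 54.4% overlap Ocel1, which was at 0.391 to 8.22 CPM.

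Nr2f2 and Nr2f1 are also expressed by cells outside the sensory epithelium. Mesenchyme markers, 1 of 8 at 0 throughout and 2 counted in all libraries, summed to 237 to 415 CPM in Insm1-Het and 224 to 335 CPM in Insm1-KO, most of it from Pdgfra. Col1a1 had 4 to 184 counts per library. Endothelial markers summed to 5.54 to 25.8 CPM and 7.58 to 30.1 CPM. The part of such cells in the levels of these and the other receptors was not tested. Nor was that of supporting cells, whose markers summed to 2059 to 2677 CPM in Insm1-Het and 2309 to 3319 CPM in Insm1-KO. In these bulk libraries fewer cells of a type and less RNA per cell cannot be told apart.

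Among the lipid and sterol sensors, Ppard and Nr1h2 were the most abundant. Ppard, a fatty acid receptor, was at 11.1, 44.2 and 12.7 CPM in Insm1-Het and at 6.62, 24 and 189 CPM in Insm1-KO. Insm1-KO replicate 3 held 65.8% of its summed level, and of the other Insm1-KO libraries 1 lay below and 1 within the Insm1-Het range. The log2 fold change was 1.69 (SE 0.95, n = 3 per genotype, edgeR adjusted p = 0.938) and turned to -0.56 without that library. Ppara had 0 to 21 counts per library. Pparg had at most 2 counts in any library, and although its Insm1-KO libraries lay above its Insm1-Het libraries in CPM (exact two-sided permutation p = 0.1, the smallest possible), all libraries were under the 3-count limit. Nr1h2, liver X receptor beta, was at 22.9, 7.77 and 27.0 CPM in Insm1-Het and at 23.3, 37.4 and 21.03 CPM in Insm1-KO, with overlap (log2 fold change 0.50, SE 0.70, n = 3 per genotype, edgeR adjusted p = 0.987). Nr1i3, the constitutive androstane receptor, was counted in 4 libraries at up to 11.2 CPM, and 74.9% of its exon bases overlap Tomm40l on the opposite strand.

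Targets of these receptors were better covered. All 7 sterol receptor targets were tested, led by Scd2, a fatty acid desaturase (919 to 1040 CPM in Insm1-Het, 1048 to 1089 CPM in Insm1-KO), and Abcg1, a sterol exporter (187 to 296 and 182 to 230 CPM). Scd2 had all Insm1-KO libraries above all Insm1-Het libraries, with a log2 fold change of 0.14 (SE 0.17, n = 3 per genotype, edgeR adjusted p = 0.986). Of 8 peroxisome proliferator-activated receptor targets 4 were tested, among them Cpt1a, which brings fatty acids into mitochondria (mean 88.8 CPM). All 4 had fold changes above 0, against 50.9% of all tested genes. The genotypes overlapped for each of them, and Pdk4 and Plin2 had means of only 2.69 and 3.74 CPM (SE 2.07 and 1.65). None of the 11 tested genes of these lists reached an unadjusted 0.05 by edgeR.

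The steroid hormone receptors were low. Esr2, estrogen receptor beta, was at 27.3, 12.0 and 0.711 CPM in Insm1-Het and at 5.13, 4.04 and 30.3 CPM in Insm1-KO. The highest and lowest libraries came from different genotypes, and the log2 fold change of -0.02 (SE 1.17, n = 3 per genotype, edgeR adjusted p = 0.998) changed sign with the fitting method. Nr3c1, the glucocorticoid receptor, was at 8.88, 14.98 and 24.9 CPM in Insm1-Het and at 10.1, 2.35 and 4.34 CPM in Insm1-KO. Insm1-KO replicates 2 and 3 were below every Insm1-Het library and replicate 1 was not. Pgr reached at most 2.44 CPM and the mineralocorticoid receptor Nr3c2 at most 43 counts.

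The chaperones that hold steroid receptors ready for ligand were well counted. Hsp90ab1 was at 2802 to 2967 CPM in Insm1-Het and 2738 to 3544 CPM in Insm1-KO, and Hsp90aa1 at 437 to 499 and 371 to 498 CPM. Of the 7 genes for glucocorticoid handling and chaperones 6 were tested, with a median log2 fold change of -0.04. Of the 6 glucocorticoid targets 5 were tested (median 0.39), led by Errfi1, a feedback inhibitor of growth factor receptors (mean 85.8 CPM), and the clock gene Per1 (mean 70.0 CPM). By edgeR 0 genes of either list reached an unadjusted 0.05.

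The estrogen-related receptors, orphan regulators of energy metabolism, were represented by Esrrg (chr1:187608791-188214885, plus strand). Esrrg was at 28.2, 45.1 and 60.5 CPM in Insm1-Het and at 63.9, 42.8 and 22.7 CPM in Insm1-KO. The ranges were nearly the same, and the log2 fold change was -0.05 (SE 0.55, n = 3 per genotype, edgeR adjusted p = 0.996). Esrra had 64, 5 and 0 counts in Insm1-Het and 0, 0 and 1 in Insm1-KO. Esrrb had 8, 0 and 192 counts in Insm1-Het and 0, 4 and 0 in Insm1-KO. Nearly all counts of each came from a single Insm1-Het library.

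The Rev-erb and ROR receptors, which repress and activate the same clock-controlled elements, were counted in every library at low level. Nr1d1 was at 10.9, 1.41 and 2.21 CPM in Insm1-Het and at 8.11, 12.1 and 3.90 CPM in Insm1-KO. Nr1d2 was at 10.3, 9.18 and 14.9 CPM in Insm1-Het and at 11.7, 1.17 and 1.56 CPM in Insm1-KO. Both overlapped, and which of the pair was higher per kilobase varied, with Nr1d2 above Nr1d1 in 2 of 6 libraries. Rora was at 12.6, 12.6 and 22.8 CPM in Insm1-Het and at 20.9, 18 and 4.67 CPM in Insm1-KO. Rorb was at 16.2, 19.0 and 12.1 CPM in Insm1-Het and at 16.8, 2.09 and 26.9 CPM in Insm1-KO. Rora was above Rorb per kilobase in 3 of 6 libraries, again with no fixed order. Nr1d1, the highest of this group per kilobase, had a log2 fold change of 0.73 (SE 1.26, n = 3 per genotype, edgeR adjusted p = 0.993), which was 2.14 without Insm1-Het replicate 1 and 0.29 without Insm1-Het replicate 2. Of 13 other clock genes listed in the files 8 were tested. Fold changes were above 0 for 2 and below for 6, against 50.9% above 0 over all tested genes. The median was -0.27, and 0 genes passed an unadjusted 0.05 by edgeR. The most abundant were Clock itself (mean 124 CPM) and Tef (mean 32.5 CPM), an output gene.

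The Nr4a receptors, which respond to stimuli as immediate early genes, were scattered. Nr4a1 ranged from 0.334 to 10.8 CPM, with both extremes in Insm1-KO libraries (log2 fold change 0.97, SE 1.49, n = 3 per genotype, edgeR adjusted p = 0.988). Nr4a3 was at 10.4, 1.78 and 0.553 CPM in Insm1-Het and at 4.16, 2.48 and 22.7 CPM in Insm1-KO. Nr4a2 had 125, 1 and 0 counts in Insm1-Het and 0, 8 and 20 in Insm1-KO. By contrast, Egr1 and Btg2, the most abundant of 10 other immediate early genes, had means of 605 and 381 CPM, with Egr1 at 399 to 714 CPM in Insm1-Het and 599 to 833 CPM in Insm1-KO. Of those 10 genes 8 were tested, 7 with fold changes above 0 (median 0.23), against 50.9% of all tested genes. By edgeR 0 of them passed an unadjusted 0.05. Nr6a1, an orphan receptor of germ cells and early embryos, was at 6.84, 31.7 and 55.5 CPM in Insm1-Het and at 12.39, 13.7 and 102 CPM in Insm1-KO, and its log2 fold change of 0.45 (SE 0.87, n = 3 per genotype, edgeR adjusted p = 0.994) turned to -1.25 without Insm1-KO replicate 3. Nr5a2 had 31 counts in Insm1-Het replicate 3, 3 in Insm1-KO replicate 1 and 0 in the others.

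Receptor cofactors were counted throughout. Of 10 coactivators 9 were counted in all 6 libraries and tested, with a median log2 fold change of 0.30, and all 9 corepressors were tested, with a median of 0.10. Ncoa2, a steroid receptor coactivator, had a mean of 408 CPM, and Crebbp, a histone acetyltransferase, one of 367 CPM. Ncor1, the corepressor held by unliganded thyroid hormone and retinoic acid receptors, was at 372, 614 and 512 CPM in Insm1-Het and at 403, 792 and 598 CPM in Insm1-KO, with overlap. Nrip1, a corepressor of liganded receptors, had a mean of 393 CPM.

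An unadjusted p under 0.05 was reached by 1 coactivator and 1 corepressor. Ncoa6, a coactivator, was at 231, 247 and 229.8 CPM in Insm1-Het and at 214, 398 and 496 CPM in Insm1-KO. Insm1-KO replicate 1 was below all Insm1-Het libraries and the other Insm1-KO libraries far above them. The log2 fold change was 0.65 (SE 0.29, n = 3 per genotype, edgeR adjusted p = 0.92), and 0.38 without Insm1-KO replicate 3. It reached an unadjusted 0.05 in 6 of 15 alternatives and in 1 of the 6 that leave out a library. Sirt1, a deacetylase that acts with corepressors, was at 68.4, 64.5 and 136 CPM in Insm1-Het and at 38.01, 24.4 and 42.6 CPM in Insm1-KO, with no overlap. Its log2 fold change was -1.35 (SE 0.47, n = 3 per genotype, 95% interval -2.36 to -0.35, edgeR adjusted p = 0.92), and it was -1.51 without Insm1-KO replicate 3. Without Insm1-Het replicate 3, its highest library, it was -0.91 and no longer reached the unadjusted 0.05. Sirt1 reached an unadjusted 0.05 in 14 of 15 alternatives and in 5 of the 6 that leave out a library. Neither passed the adjusted threshold. Over all 106 genes of the 12 lists, 75 were tested, 45 with fold changes above 0, against 50.9% of all tested genes. The median was 0.12. Higher in Insm1-KO at an unadjusted 0.05 was 1 of 75 against 3.19% of all tested genes, and lower 1 of 75 against 2.15%. Every Insm1-KO library was above every Insm1-Het library for 2 of 75, against 5.08% of all tested genes. The reverse held for 5 of 75, against 6.1%.

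Over the receptor family as a whole no genotype difference passed the test. Of 26 tested members 0 had an edgeR adjusted p under 0.05, as for all genes (0 of 11714, 0%), and 1 of 26 reached an unadjusted 0.05. Rara and Nr2c2 were the 2 of 26 members whose genotypes did not overlap (7.69%), against 11.2% of all tested genes in either direction. Both had every Insm1-KO library above every Insm1-Het library, which held for 5.08% of all tested genes. The reverse held for 0 of 26 members, against 6.1%. At least 2-fold between genotypes were 7 of 26, or 26.9%, against 21.4% of all tested genes. Fold changes above 0 were seen for 15 of 26 members (57.7%), against 50.9%. The median log2 fold change of the members was 0.23, against 0.02 over all genes, with a spread between libraries of the same genotype of 0.15 (SD of the members' library medians). Without Insm1-KO replicate 3 the members' median was 0.03, and with no filter on low counts it was -0.01. The list as a whole was described and not tested.

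**Figure D3:**
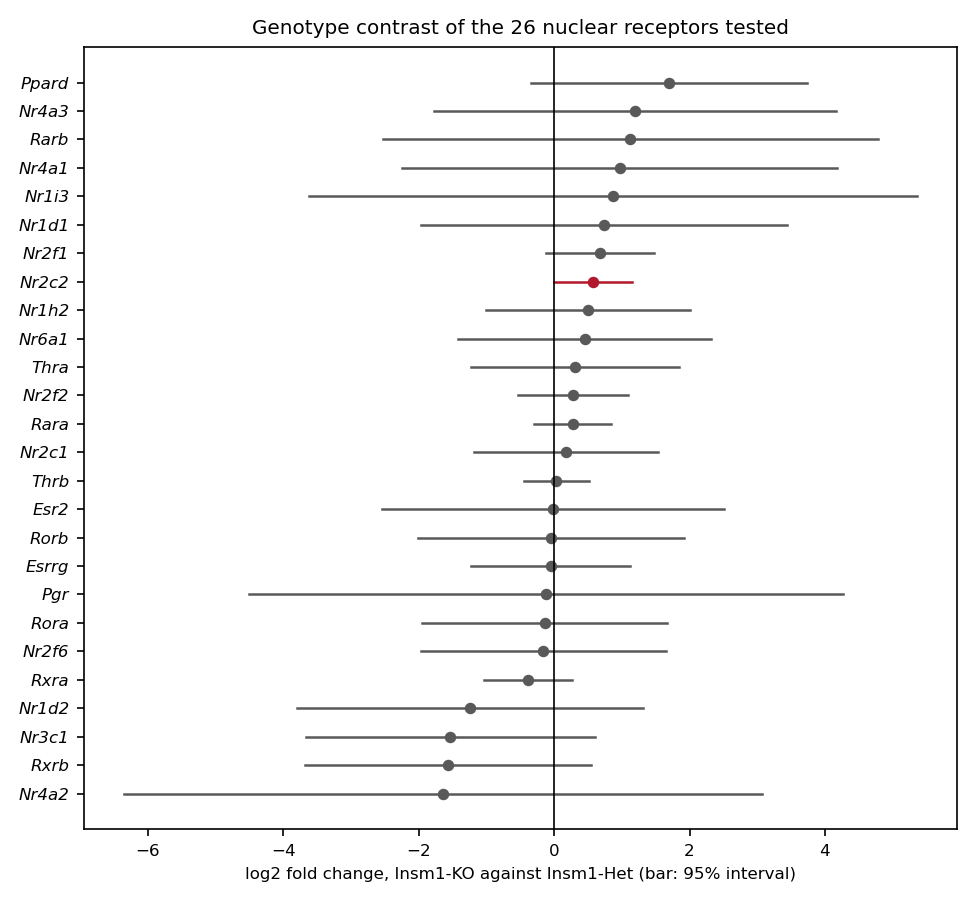
Log2 fold change of Insm1-KO against Insm1-Het for each of the 26 tested nuclear receptors, with bars for the 95% interval from edgeR's fit and red for an unadjusted p under 0.05. Only the interval of Nr2c2, 0.0027 to 1.15, leaves out 0, and the intervals of abundant receptors such as Thrb (-0.45 to 0.51) are far narrower than those of scarce ones.

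The width of those intervals set what could be seen. The median SE of the members' log2 fold changes was 0.89, against 0.65 over all tested genes, and their median coefficient of variation over the 6 libraries was 64.0% against 49.1%. The spread varied with level. At 100 CPM or more, 5 members had a median coefficient of variation of 24.1% against 24.3% for 2517 genes, and at 20 to 100 CPM 8 members had 50.3% against 42.8%. At 5 to 20 CPM the values were 69.9% and 74.7%, and under 5 CPM 97.4% and 107%. Thrb (17.4%) and Rara (15.5%) were the steadiest members.

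Single libraries often held a member's extreme. Insm1-KO replicate 3 was the highest library for 11 and the lowest for 6 of the 26 tested members, 65.4% in all, against 51.3% of all tested genes. Insm1-Het replicate 3 held an extreme for 50.0% of the members against 31.7% of genes. Each of the other 4 libraries held an extreme for 15.4% to 23.1% of the members, against 22.8% to 32.6% of genes. The members' summed level was 1484 to 1710 CPM in Insm1-Het, and 1607, 1486 and 2229 CPM in Insm1-KO, so Insm1-KO replicate 3 was the highest in total as well. That library also had the lowest Insm1 level and the highest level of Brip1, and whether these bear on its receptor levels was not tested.

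**Figure D4:**
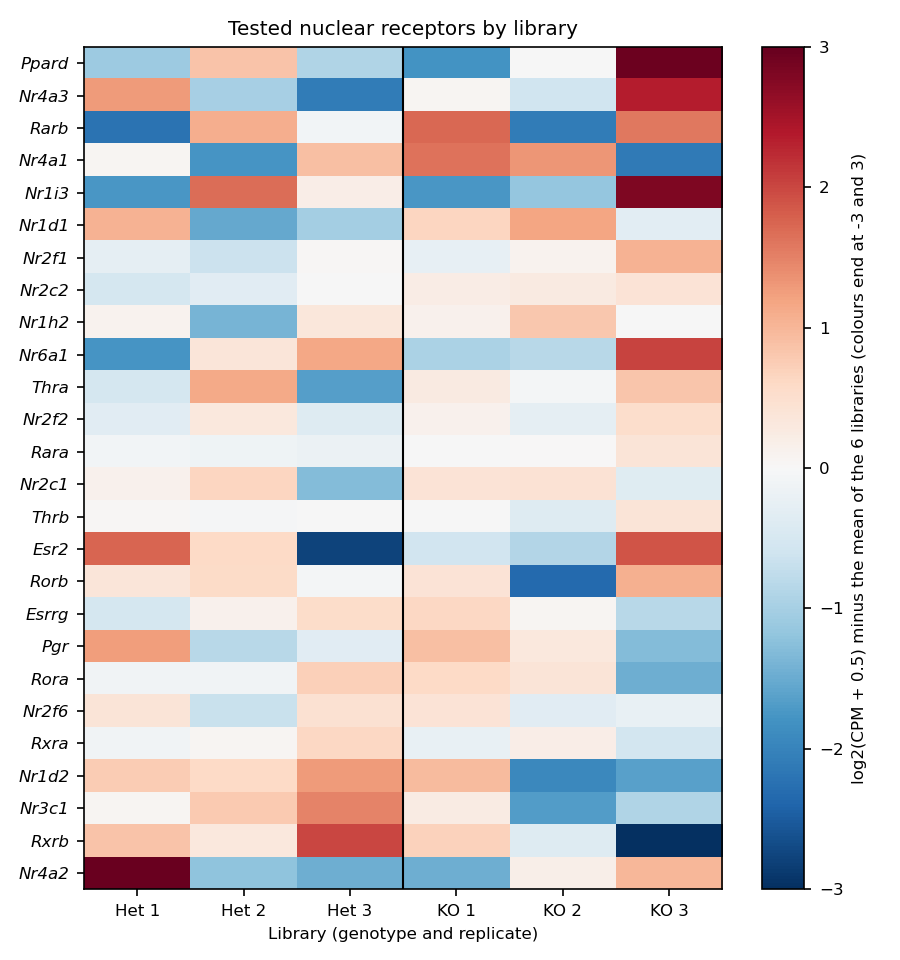
Colour map of log2(CPM + 0.5) in each library minus the mean of the 6 libraries, for the 26 tested nuclear receptors ordered by fold change, with a line between the 3 Insm1-Het and 3 Insm1-KO libraries. Thrb, Rara and Nr2c2 are pale throughout. Strong colours often fall on single libraries, such as Insm1-KO replicate 3 for Ppard (189 CPM) and Rxrb (0.668 CPM). Another is Insm1-Het replicate 1 for Nr4a2. Rarb is low in both Insm1-Het replicate 1 (0.0814 CPM) and Insm1-KO replicate 2 (0.13 CPM).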

How the data were processed

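RNA of 6 libraries of sorted outer hair cells was sequenced, 3 per genotype as labelled. The authors deposited whole-number counts per gene symbol, 1 table per library, not normalized. Trimmomatic, STAR, HTSeq and the build GRCm38 (mm10) are named in the submitters' processing notes. Versions, gene models, strandedness and the handling of multiply mapping reads: not given in the sources used here. Per the labels' protocols, amplified cDNA was primed with random hexamers and read as pairs of 100 bp, so counts include amplification copies and intervals from counts cover counting error only.

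Genes were kept by filterByExpr (minimum count 10, minimum total 15), which left 11714; those removed held 0.274% of counts. Libraries of 7705177 to 12427039 counts were scaled by TMM, and the genotype contrast used the quasi-likelihood F test of edgeR 4.0.16 in R 4.3.3 (genotype as the only term, p adjusted by Benjamini-Hochberg over all tested genes, threshold 0.05). The standard error is the log2 fold change divided by the square root of F. Whether replicates are separate animals or litters is not in the labels, so p-values reflect the spread among these libraries alone, and that spread may be technical. The fit was tested on simulated counts.

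Lengths, positions and coding sequences came from GENCODE M21 on GRCm38, to which 22814 symbols (97.8%) and all 46 members matched; promoters came from RefSeq. The members and lists were chosen with earlier results of these data known. Members with a mean of at least 5 CPM, an unadjusted p under 0.05 or, if untested, no overlap of genotypes are given in every library. Fold changes are given for those with an unadjusted p under 0.05 and the most abundant of each group, and of each pathway list the 2 most abundant genes and those with an unadjusted p under 0.05 are named, except that 2 such genes are not reported here. Fold changes of Scd2 and Ncoa7 are given in addition, chosen after their values were seen. So are the values of Dio1, Dio2, Dio3, Aldh1a1, Aldh1a2, Aldh1a3, Fabp5, Rarb, Pgr, Nr1i3, Nr4a1 and the scarce members. Alternatives were DESeq2 1.42.0, limma-voom (limma 3.58.1), edgeR's newer form, other scalings and filters, a replicate block and leaving out each library.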

Additional observations from a re-analysis of the deposited data

How the results depend on the processing

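The number of nuclear receptors past the adjusted threshold was 0 under every alternative run. Over all genes it was 0 with edgeR (626 at an unadjusted 0.05), 26 with DESeq2 (858), 0 with limma-voom (606), 1 with edgeR's newer form, 67 with no filter on low counts, and 0 to 0 with each library left out. The replicate numbers are shared between genotypes, but same-numbered libraries did not deviate together (correlations of 0.010, 0.007 and 0.014), so they were not taken as pairs; with a replicate block 1 gene passed, also 1 with the block and the newer form, an alternative chosen after seeing the data. The members' median log2 fold change of 0.23 was -0.0147 with no filter, when 35 members entered, and 0.027 to 0.31 with each library left out. Members at 5 CPM or more were 21 to 22 with each library left out, and 27 at a threshold of 1 CPM or 18 at 10 CPM.

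The sign turned for Thrb (-0.043 with library-size scaling, -0.0022 with the replicate block, -0.18 without Insm1-KO replicate 3), Esrrg (0.24 without Insm1-Het replicate 3, 0.27 without Insm1-KO replicate 3), Nr6a1 (-0.02 without Insm1-Het replicate 1, -1.25 without Insm1-KO replicate 3) and Ppard (-0.56 without Insm1-KO replicate 3). For Esr2 it turned to 0.0096 with DESeq2, 0.57 with limma-voom, 0.0206 with the newer form, 0.0097 with median-ratio scaling, 0.0353 with the block and newer form, and 1.06, 0.36 and 0.42 without Insm1-Het replicate 1, Insm1-KO replicate 1 and Insm1-KO replicate 2. With each library left out, the range was -0.18 to 0.22 for Thrb, -0.45 to 0.27 for Esrrg, -1.25 to 1.18 for Nr6a1, -0.56 to 2.62 for Ppard and -1.53 to 1.06 for Esr2. Without a change of sign it was -0.59 to -0.13 for Rxra, 0.14 to 0.35 for Rara, 0.22 to 0.92 for Nr2f1, 0.29 to 2.14 for Nr1d1, 0.13 to 0.83 for Nr1h2 and 0.41 to 1.77 for Nr4a1. The cause was not tested. Of the genes named in this paragraph only Nr4a1 (mean 4.96 CPM) lay under 5 CPM, where the members' median coefficient of variation was 97.4%.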
